A study of Homo sapiens with 4 samples.

Results

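The enzymes that make, recycle and break down purine and pyrimidine nucleotides were examined on 4 arrays of 1 colour, 2 from rapamycin-treated and 2 from control MOLM-14 cells. The 34 enzymes were chosen by name from textbook pathways, with earlier results of these data known. Each was matched to its probe set through the Entrez gene number. They are 34 of the 24885 genes named on the array, and all 34 passed the filter on low values, which left 15099 genes for testing. The MOLM-14 line was derived from acute myeloid leukemia and carries an activating FLT3 duplication and a KMT2A fusion. The rapamycin arrays come from MOLM-14 cells exposed to 10 nM rapamycin, an inhibitor of the kinase complex mTORC1, for 24 hours, and the control arrays from MOLM-14 cells whose agent is given as control. The growth and treatment text attached to all 4 samples describes cells carrying doxycycline-inducible hairpins, either scrambled or against PIM2, kept for 72 hours in 200 ng/ml doxycycline. Whether the rapamycin and control cultures carried such a hairpin is not settled by the sources used here. A line of this kind is 1 model of the disease, and arrays read RNA, not enzyme activity or nucleotide pools.

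Purine nucleotides are built from ribose phosphate by a chain of enzymes that ends in inosine monophosphate, from which separate branches lead to AMP and GMP. Pyrimidine rings are made first and joined to ribose phosphate afterwards, giving UMP and then CTP. Ribonucleotide reductase turns ribonucleotides into deoxynucleotides for DNA, and salvage enzymes reclaim free bases and nucleosides. Dividing leukemic cells draw on all of these routes, and mTORC1 is known to promote de novo synthesis through phosphorylation of the pyrimidine enzyme CAD and through the transcription factor ATF4.

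Values are log2 expression units, and a log2 fold change is the rapamycin mean minus the control mean. Array medians were 5.43 and 5.45 log2 units with rapamycin, against 5.44 and 5.38 in controls. Over all 25582 probe sets, Pearson correlations between arrays ran from 0.99245 to 0.9957. The 8 markers of myeloid leukemia cells, CD33 and LYZ among them, all passed the filter, whereas the T cell markers CD3E, CD3D and CD2, the B cell marker MS4A1, the erythroid marker HBB and the epithelial marker EPCAM lay below it. Markers of other cells that passed included PAX5, at 7.03 to 7.16, KRT19, COL1A1 and COL1A2, and 0 of the 13 markers tested were called between the groups. Nothing in the labels places the replicates in separate cultures beyond the design's term for them, so the p-values reflect array-to-array spread, part of which may be technical.

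The start-site windows of 6 genes follow, because these genes hold the highest and the lowest fold changes of the nucleotide genes (CTPS1 and UCK2), the isoenzyme of CTPS1 (CTPS2), or the letters of a known regulatory motif (RRM2, ATIC and DCK). Each window runs from 250 bases before to 50 bases after the gene start, taken from RefSeq on GRCh38.p14 and read 5′ to 3′ on the gene's strand. Capitals mark the letters CCAAT (the NF-Y box), CACGTG (the E-box bound by MYC and related factors) and TTTGGCGC (a form of the E2F site), on either strand. The windows are chr1:40979446-40979745 (plus) for CTPS1, chrX:16712620-16712919 (minus) for CTPS2, chr1:165827364-165827663 (plus) for UCK2, chr2:10122489-10122788 (plus) for RRM2, chr2:215311809-215312108 (plus) for ATIC and chr4:70993399-70993698 (plus) for DCK.
CTPS1: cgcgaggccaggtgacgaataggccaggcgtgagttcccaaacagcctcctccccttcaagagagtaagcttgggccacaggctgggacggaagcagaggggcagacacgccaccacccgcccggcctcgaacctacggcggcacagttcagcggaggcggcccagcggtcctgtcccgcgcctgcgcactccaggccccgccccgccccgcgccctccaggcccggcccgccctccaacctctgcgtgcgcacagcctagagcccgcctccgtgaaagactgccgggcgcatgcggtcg
CTPS2: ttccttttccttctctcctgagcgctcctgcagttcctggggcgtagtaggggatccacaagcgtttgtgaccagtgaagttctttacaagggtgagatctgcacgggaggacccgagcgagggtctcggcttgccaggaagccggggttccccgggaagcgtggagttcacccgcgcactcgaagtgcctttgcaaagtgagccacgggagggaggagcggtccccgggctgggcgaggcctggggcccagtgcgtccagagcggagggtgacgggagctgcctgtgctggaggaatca
UCK2: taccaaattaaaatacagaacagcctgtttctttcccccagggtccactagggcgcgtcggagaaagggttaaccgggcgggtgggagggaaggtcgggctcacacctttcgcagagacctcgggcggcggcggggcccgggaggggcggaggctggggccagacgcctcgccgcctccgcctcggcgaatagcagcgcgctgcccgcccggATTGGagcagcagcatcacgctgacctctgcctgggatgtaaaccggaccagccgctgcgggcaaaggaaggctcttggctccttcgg
RRM2: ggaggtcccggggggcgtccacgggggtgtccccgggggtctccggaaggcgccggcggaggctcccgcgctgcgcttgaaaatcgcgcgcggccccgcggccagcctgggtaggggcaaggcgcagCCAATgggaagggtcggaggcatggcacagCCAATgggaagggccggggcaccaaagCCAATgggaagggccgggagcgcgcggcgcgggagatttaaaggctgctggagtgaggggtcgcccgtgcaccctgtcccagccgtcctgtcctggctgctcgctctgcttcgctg
ATIC: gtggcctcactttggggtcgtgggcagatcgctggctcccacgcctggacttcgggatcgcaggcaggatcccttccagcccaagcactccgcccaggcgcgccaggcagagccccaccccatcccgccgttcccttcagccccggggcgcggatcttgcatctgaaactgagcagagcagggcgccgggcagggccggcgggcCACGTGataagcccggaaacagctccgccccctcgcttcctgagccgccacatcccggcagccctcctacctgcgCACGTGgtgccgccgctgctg
DCK: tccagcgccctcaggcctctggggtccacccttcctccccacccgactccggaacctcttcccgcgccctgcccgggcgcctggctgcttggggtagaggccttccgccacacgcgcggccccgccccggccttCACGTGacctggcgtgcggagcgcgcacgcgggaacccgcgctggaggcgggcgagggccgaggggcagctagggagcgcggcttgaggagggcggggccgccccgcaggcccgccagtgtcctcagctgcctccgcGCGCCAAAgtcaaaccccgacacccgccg

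RefSeq windows were matched for 31 of the 34 enzymes. The E-box CACGTG was found in 6 of the 31 (19.4%), against 7.43% of 27305 gene windows of this length. Its carriers were PPAT, ATIC, DHODH, DCK, DCTPP1 and NME1, and ATIC had it at 2 places. The E2F words TTTGGCGC or TTTCGCGC were found in 1 of the 31 (3.23%), that of DCK, against 1.18% of all windows. CCAAT, added after the windows had been read, was found in 9 of the 31 (29%), against 35.7% of all windows, and RRM2 carried it at 3 places. The word TGATGCAA, a form of the site bound by ATF4 with a C/EBP partner, was in 0 of the 31 and in 0.923% of all windows. CTPS1 and CTPS2 had none of these words, and UCK2 had CCAAT alone. In 38 windows of the replication genes described below, 15.8% held the E-box, 34.2% an E2F word and 57.9% CCAAT. All motifs were searched on both strands, and a match is a description of the letters only.

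None of the 34 enzymes passed the test between rapamycin and control arrays. In the limma fit across all 15099 genes, 0 rose and 0 fell at an adjusted p under 0.05, where 1.26% of all genes were called, 0.417% higher and 0.841% lower. Over all genes tested, the smallest absolute log2 fold change of a gene called in this fit was 0.34. At an unadjusted p under 0.05, 4 members were higher with rapamycin (CTPS1, SAMHD1, IMPDH2 and TK1) and 1 was lower (ADA), against 7.19% and 8.24% of all genes tested. The members had a median log2 fold change of 0.07, beside 0.01 over all genes tested, and their fold changes ran from -0.24 for ADA to 0.43 for CTPS1. A value above 0 was seen for 24 of the 34 (70.59%), beside 53.07% of all genes. The median was 0.02 without rapamycin replicate 2 and 0.10 without rapamycin replicate 1. Without rapamycin replicate 1, 4 members rose (CTPS1, TK1, IMPDH2 and IMPDH1), in a fit where the remaining rapamycin array is assumed to vary like the controls. Calls were more frequent throughout that fit, in which 466 of 15098 genes rose and 913 fell, against 63 and 127 with all arrays.

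The small fold changes were measured with moderate precision. The standard error (SE) of a member's log2 fold change had a median of 0.09, beside 0.12 over all genes, and the 95% interval had a half-width of 0.16 to 0.34. That interval lay within 1.5-fold either way for 32 of the 34 enzymes, beside 88.16% of all genes. The exceptions were CTPS1, whose interval reached 1.54-fold, and TK1, whose interval reached 1.61-fold. An unadjusted interval within 1.5-fold was thus common to these enzymes and to most genes tested. It rests on the spread between arrays, part of which may be technical, and smaller differences are not settled.

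**Figure D1:**
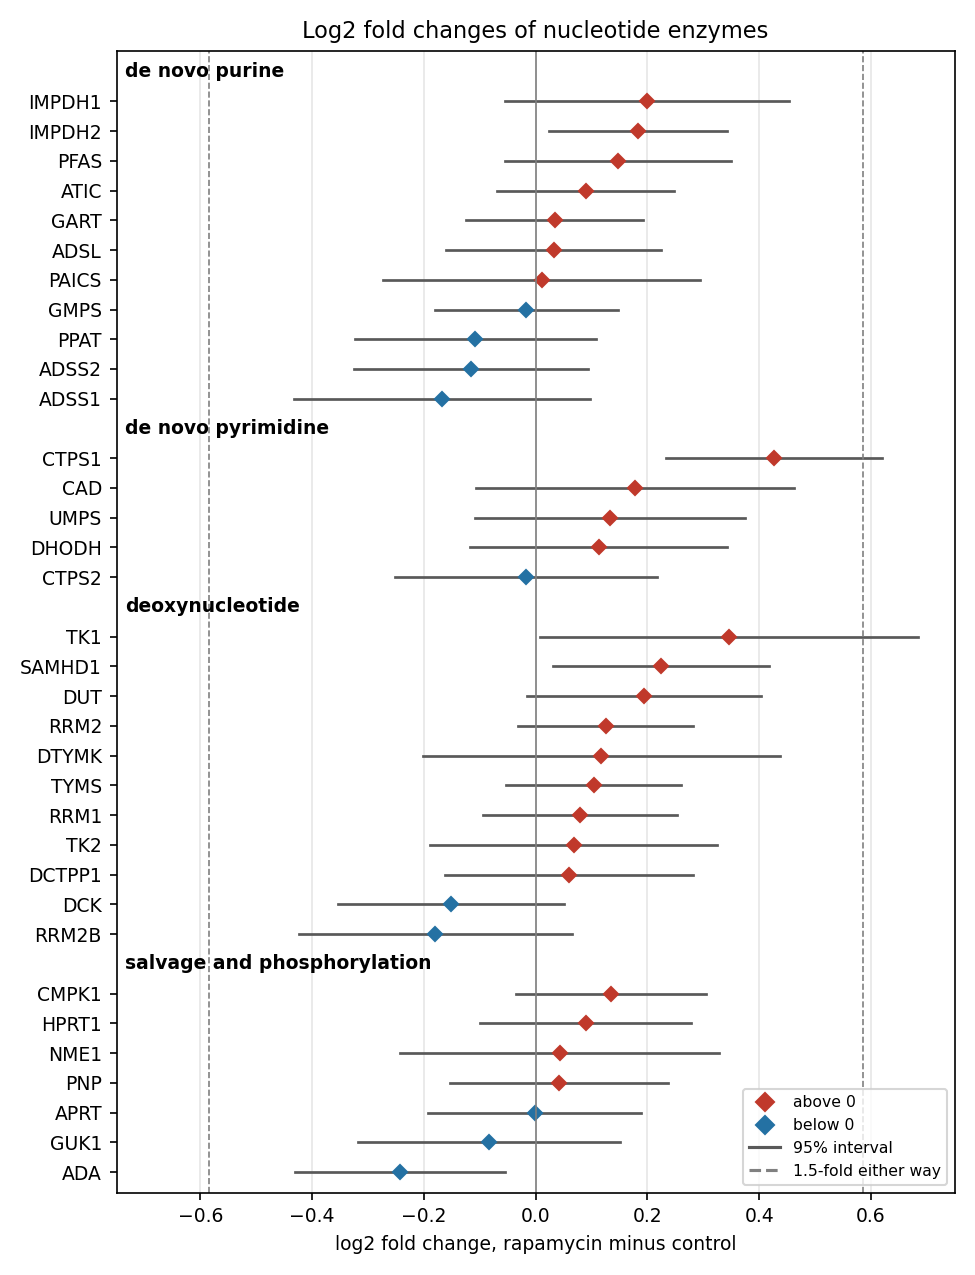
Log2 fold change of each of the 34 nucleotide enzymes (x axis, rapamycin minus control, log2 units), grouped by branch and ordered by value, with 95% intervals from the limma fit. Dashed lines mark 1.5-fold either way, and the intervals of CTPS1 and TK1 alone cross one.

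Rapamycin arrays lay on 1 side of both control arrays for 17 members, 14 above and 3 below. The same was seen for 46.7% of all genes tested, 24.8% above and 21.9% below. The rapamycin arrays differed from each other more than the controls did in 26 of the 34 enzymes, and in 8996 of the 15099 genes tested. Their median gap was 0.14 log2 units, against 0.07 between the control arrays, and over all genes these medians were 0.13 and 0.09. The plot of the enzymes by array shows this spread, with rapamycin replicate 2 farther out than replicate 1 in genes such as TK1, IMPDH1 and CAD.

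**Figure D2:**
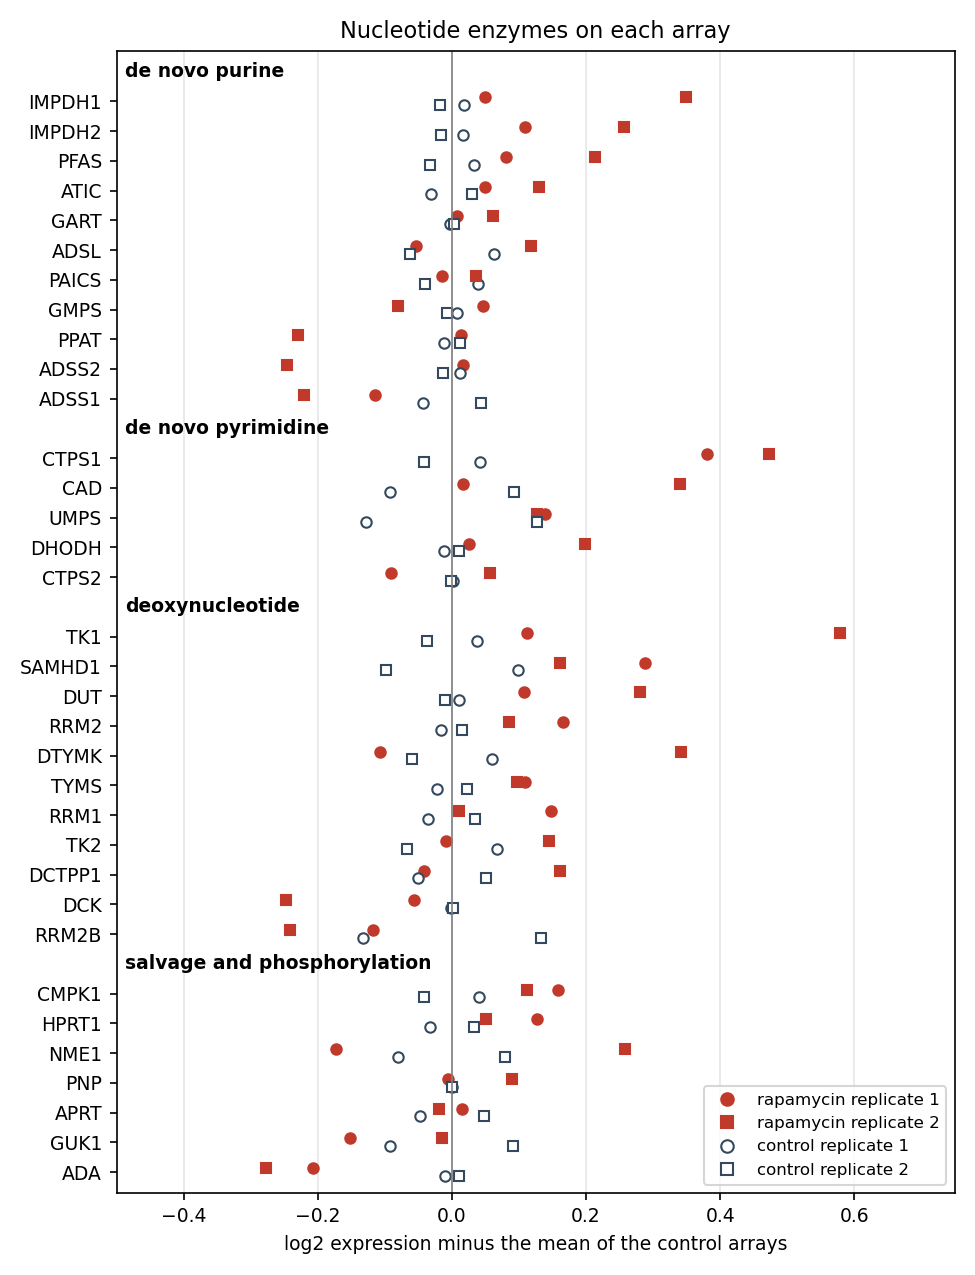
Log2 expression of each of the 34 nucleotide enzymes on each array (x axis, log2 units, as the difference from the mean of the control arrays), with rapamycin arrays as filled symbols above the open control symbols. CTPS1 has its rapamycin arrays 0.38 and 0.47 above the control mean, and TK1 has rapamycin arrays that are 0.47 apart.

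The 11 enzymes of de novo purine synthesis gave 0 calls and a median log2 fold change of 0.03, with 7 values above 0 and 4 below. The chain itself stood close to 0. PPAT, which commits ribose phosphate to the pathway, had a log2 fold change of -0.11 (SE 0.10), and its rapamycin arrays, at 8.94 and 8.70, overlapped the control arrays at 8.92 and 8.94. The trifunctional GART stood at 0.03 (SE 0.07), the amidotransferase PFAS at 0.15 (SE 0.09), ADSL, which acts in the chain and again on the way to AMP, at 0.03 (SE 0.09), and ATIC, which closes the ring, at 0.09 (SE 0.07). The bifunctional PAICS stood at 0.01 (SE 0.13), on a probe set with a mean of 5.67 with rapamycin and 5.66 in controls, close to the filter minimum of 4.86. Its direction was not stable, being -0.02 with each array centred on its median and after a repeated quantile normalization.

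Both IMP dehydrogenases, which set the pace of guanine nucleotide synthesis, were on the high side with rapamycin without passing the test. IMPDH2, the form that prevails in dividing cells, measured 11.20 and 11.35 with rapamycin, against 11.11 and 11.08 in controls (log2 fold change 0.18, SE 0.07, limma adjusted p = 0.255). IMPDH1 measured 7.81 and 8.11 with rapamycin, against 7.78 and 7.74 in controls (log2 fold change 0.20, SE 0.11, limma adjusted p = 0.446). In both genes the rapamycin arrays lay above the controls, and replicate 2 was the higher. Without rapamycin replicate 1 both passed, at adjusted p-values of 0.0355 for IMPDH2 and 0.0416 for IMPDH1. Without rapamycin replicate 2 the log2 fold change was 0.11 for IMPDH2 (adjusted p = 0.468) and 0.05 for IMPDH1 (adjusted p = 0.87). GMPS, which completes GMP, had a log2 fold change of -0.02 (SE 0.07), with an overlap of the groups.

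The adenylosuccinate synthases, which lead to AMP, were on the low side. ADSS2 measured 9.76 and 9.50 with rapamycin, against 9.76 and 9.73 in controls (log2 fold change -0.11, SE 0.09, limma adjusted p = 0.611), so only replicate 2 lay clearly below. ADSS1, known mainly from muscle, measured 6.32 and 6.21 with rapamycin, against 6.39 and 6.48 in controls (log2 fold change -0.17, SE 0.12, limma adjusted p = 0.551), and both rapamycin arrays lay below. The GMP-side dehydrogenases and the AMP-side synthases thus had opposite signs, but none of these 4 genes was called and the difference between the sides was not tested.

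The 5 enzymes of de novo pyrimidine synthesis had a median log2 fold change of 0.13, with 4 values above 0 and 0 calls. CTPS1, which aminates UTP to CTP and is the form that proliferating lymphocytes depend on, had the highest fold change of all 34 enzymes. It measured 8.68 and 8.78 with rapamycin, against 8.35 and 8.26 in controls, which is 8.73 ± 0.07 against 8.30 ± 0.06 (SD, n = 2 each). The groups were well apart, and the difference was 1.34-fold, with a 95% interval from 1.18-fold to 1.54-fold. CTPS1 missed the threshold by little (log2 fold change 0.43, SE 0.09, limma adjusted p = 0.0524). It passed with the stricter filter (adjusted p = 0.0426) and among protein-coding genes alone (adjusted p = 0.0395), and missed by more with no filter (adjusted p = 0.109) and without the mean-variance trend (adjusted p = 0.175). When an array was left out, the adjusted p ran from 0.00817 without rapamycin replicate 1 to 0.361 without control replicate 2.

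CTPS2, the second CTP synthase, measured 7.13 and 7.27 with rapamycin, against 7.22 and 7.22 in controls (log2 fold change -0.02, SE 0.10, limma adjusted p = 0.963). Its rapamycin arrays lay on either side of the controls. The earlier steps of the route did not reach the threshold either. CAD, the trifunctional enzyme that starts the pathway, stood at 0.18 (SE 0.13, limma adjusted p = 0.557), with 7.56 and 7.89 under rapamycin and 7.46 and 7.64 in controls. The mitochondrial DHODH stood at 0.11 (SE 0.10), and UMPS, which makes UMP, at 0.13 (SE 0.11), where control replicate 1 was the low array at 7.62. The branch median was 0.26 without control replicate 2 and 0.026 without rapamycin replicate 2.

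Among the 11 enzymes of deoxynucleotide metabolism, 9 had values above 0 and 2 below, with a median log2 fold change of 0.10 and 0 calls. TK1, the cytosolic thymidine kinase of S phase, measured 6.94 and 7.41 with rapamycin, against 6.86 and 6.79 in controls (log2 fold change 0.35, SE 0.15, limma adjusted p = 0.31). The rapamycin arrays lay above the controls but far from each other. The log2 fold change of TK1 was 0.58 without rapamycin replicate 1 (adjusted p = 0.014) and 0.11 without rapamycin replicate 2 (adjusted p = 0.746), so its size rests on 1 array. TK2, the mitochondrial thymidine kinase, measured 6.849 and 7.003 with rapamycin, against 6.925 and 6.791 in controls (log2 fold change 0.07, SE 0.11, limma adjusted p = 0.832), with overlap.

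SAMHD1, which breaks deoxynucleoside triphosphates down and is abundant in myeloid cells, measured 10.43 and 10.30 with rapamycin, against 10.24 and 10.04 in controls (log2 fold change 0.22, SE 0.09, limma adjusted p = 0.253). Both rapamycin arrays lay above both controls. DUT, which removes dUTP and supplies dUMP, measured 8.28 and 8.46 with rapamycin, against 8.19 and 8.16 in controls (log2 fold change 0.19, SE 0.09, limma adjusted p = 0.36). Its groups did not overlap either. TYMS, the thymidylate synthase, stood at 0.10 (SE 0.07), with rapamycin arrays at 10.00 and 9.99 and controls at 9.87 and 9.92. DTYMK, which phosphorylates dTMP, stood at 0.12 (SE 0.14) and DCTPP1, a pyrophosphatase of dCTP, at 0.06 (SE 0.10), both with overlap.

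The subunits of ribonucleotide reductase differed in sign. RRM2, the small subunit of S phase, measured 10.29 and 10.21 with rapamycin, against 10.11 and 10.14 in controls (log2 fold change 0.13, SE 0.07, limma adjusted p = 0.439). RRM2B, the small subunit induced by p53, measured 8.127 and 8.003 with rapamycin, against 8.112 and 8.377 in controls (log2 fold change -0.18, SE 0.11, limma adjusted p = 0.479). RRM2 was higher on both rapamycin arrays, while the groups overlapped for RRM2B, in which control replicate 2 was the high array. The large subunit RRM1 stood at 0.08 (SE 0.08). DCK, the deoxycytidine kinase that activates cytarabine, was the other member below 0, at -0.15 (SE 0.09, limma adjusted p = 0.469), with 8.75 and 8.56 under rapamycin and 8.81 and 8.81 in controls.

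**Figure D3:**
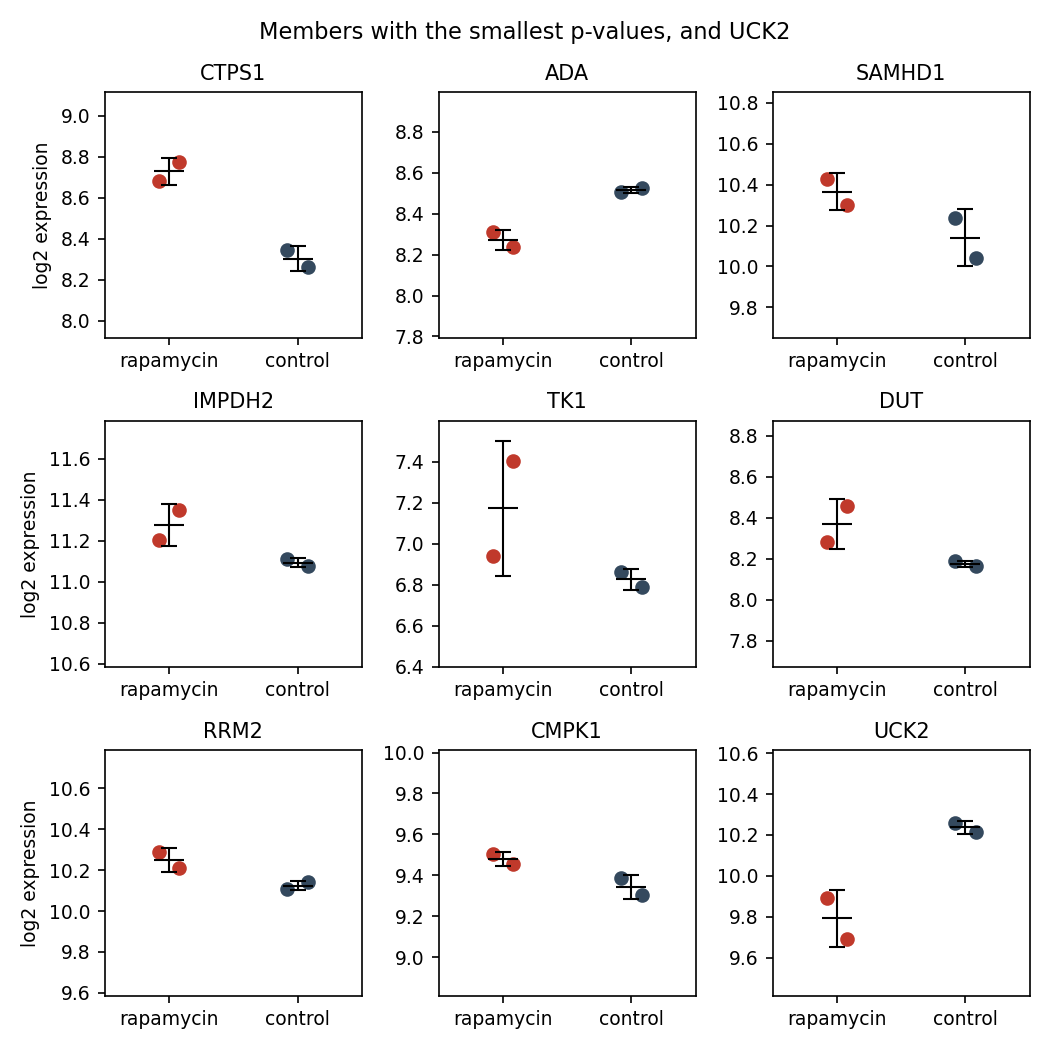
Log2 expression (y axis, log2 units, with the same span of 1.2 in each panel) on the rapamycin arrays (left) and control arrays (right) for the 8 members with the smallest p-values and for UCK2. Points are arrays, horizontal bars are means and whiskers are SD (n = 2 each); CTPS1 and UCK2 show the largest differences, in opposite directions.

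The 7 enzymes of salvage and nucleotide phosphorylation had a median log2 fold change of 0.04, 4 values above 0 and 0 calls. ADA, the adenosine deaminase whose loss causes immunodeficiency, had the lowest fold change of the 34 enzymes. It measured 8.31 and 8.24 with rapamycin, against 8.51 and 8.53 in controls, and the groups were apart (log2 fold change -0.24, SE 0.08, 1.18-fold lower, limma adjusted p = 0.208). PNP, which acts next after ADA in purine breakdown and salvage, stood at 0.04 (SE 0.09). The salvage transferases HPRT1, for hypoxanthine and guanine, and APRT, for adenine, stood at 0.09 (SE 0.08) and 0.00 (SE 0.08).

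Of the kinases, CMPK1, which phosphorylates UMP and CMP, measured 9.50 and 9.46 with rapamycin, against 9.39 and 9.30 in controls (log2 fold change 0.14, SE 0.08, limma adjusted p = 0.439). Its rapamycin arrays were above the controls. GUK1, the guanylate kinase, stood at -0.08 (SE 0.10). NME1, a nucleoside diphosphate kinase nearly identical in sequence to NME2, so that their probes may be shared, stood at 0.04 (SE 0.13), and its rapamycin arrays, at 9.64 and 10.07, enclosed the controls at 9.73 and 9.89. The branch median was -0.04 without control replicate 1, when NME1 stood at -0.04.

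For the 5 isoenzyme pairs, the change of one form relative to the other was compared on the 4 arrays. The log2 fold change of CTPS1 exceeded that of CTPS2 by 0.44, that of RRM2 exceeded that of RRM2B by 0.30, and that of TK1 exceeded that of TK2 by 0.28. In these 3 pairs the rapamycin arrays did not overlap the controls, at an exact permutation p of 0.333 each (two-sided), which is the smallest that 2 against 2 arrays allow, and 0.556 adjusted over the 5 pairs. This permutation test therefore cannot call a difference within a pair, and no model-based test of these differences was run. For single genes, the rapamycin arrays lay on 1 side of both controls in 46.7% of all genes tested. The matching share for gene pairs at large was not computed. The differences were -0.02 for IMPDH2 over IMPDH1 and 0.05 for ADSS2 over ADSS1, with overlapping arrays.

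Beyond the 34 enzymes, 1 nucleotide gene passed the test. Of 55 other genes of nucleotide supply, covering ribose phosphate synthesis, folate carriers of carbon, kinases, nucleotidases and transporters, 50 passed the filter, 1 fell, 0 rose and 49 did not pass. Their median log2 fold change was 0.00, beside 0.01 over all genes tested. The 1 call among 50 stands beside the 0.841% of all genes that were called lower. The gene that fell was UCK2, the uridine-cytidine kinase that begins pyrimidine salvage. UCK2 measured 9.89 and 9.69 with rapamycin, against 10.26 and 10.21 in controls, and both rapamycin arrays lay below (log2 fold change -0.44, SE 0.08, 1.36-fold lower, limma adjusted p = 0.0421). UCK2 was no longer called when either control array was left out (adjusted p = 0.122 without replicate 1 and 0.113 without replicate 2), with no filter (adjusted p = 0.0988) and without the mean-variance trend (adjusted p = 0.187). Its log2 fold change lay between -0.54 and -0.34 in all the alternatives run.

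UCK1, the related kinase, had a log2 fold change of 0.08 (SE 0.13), and UCKL1 of 0.01, so the difference from UCK2 is given as values only. MTHFD2, the mitochondrial folate enzyme and a known ATF4 target, stood at -0.25 (SE 0.08, limma adjusted p = 0.186), with 10.17 and 10.11 under rapamycin and 10.49 and 10.29 in controls. SHMT1, the cytosolic serine hydroxymethyltransferase, stood at 0.26 (SE 0.10, limma adjusted p = 0.251). The ribose phosphate synthetases PRPS1 and PRPS2, which feed every branch, stood at -0.08 and 0.06.

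Among transcription factors that act on nucleotide genes, MYC measured 11.03 and 11.08 with rapamycin, against 10.92 and 10.90 in controls (log2 fold change 0.15, SE 0.06, limma adjusted p = 0.309). ATF4 transcript stood at -0.08 (SE 0.10, limma adjusted p = 0.77), and E2F1 at 0.40 (SE 0.12, limma adjusted p = 0.155), with 6.41 and 6.28 under rapamycin and 5.92 and 5.97 in controls. None of the 3 was called, and the E2F1 arrays were well apart.

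Genes of DNA replication and the cell cycle were on the high side as well, without a call. Of 45 such genes, E2F1 among them, all of which passed the filter, 0 rose and 0 fell at the adjusted threshold, but 16 were higher and 2 lower at an unadjusted limma p under 0.05, beside 7.19% and 8.24% of all genes tested. Their median log2 fold change was 0.15, beside 0.10 for the deoxynucleotide branch, and 29 of the 45 had both rapamycin arrays above both controls, as did 24.8% of all genes. The list of 45 was set with earlier results of these data known, and no test over the list was run. The following genes were chosen after their values were seen. The G1/S cyclin CCNE2 stood at 0.40 (SE 0.09, limma adjusted p = 0.0652) and the primase PRIM1 at 0.29 (SE 0.07, limma adjusted p = 0.0872). The mitotic CCNB1 stood at -0.42 (SE 0.09, limma adjusted p = 0.0582) and TOP2A at -0.16 (SE 0.07, limma adjusted p = 0.288). CDK1, at -0.23, and CCNA2, at -0.11, had overlapping arrays. MKI67 went the other way, at 0.18 (SE 0.06, limma adjusted p = 0.209), with both rapamycin arrays above both controls. Replication genes did not all lie above 0, with 34 of the 45 values above and 11 below. The other primase subunit PRIM2, at -0.08, and RFC3, at -0.09, had both rapamycin arrays below both controls. Without rapamycin replicate 1, where 466 of all 15098 genes rose and 913 fell, 8 of the replication genes rose and 2 fell. The part of cell cycle position in the values of the deoxynucleotide enzymes was not tested.

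**Figure D4:**
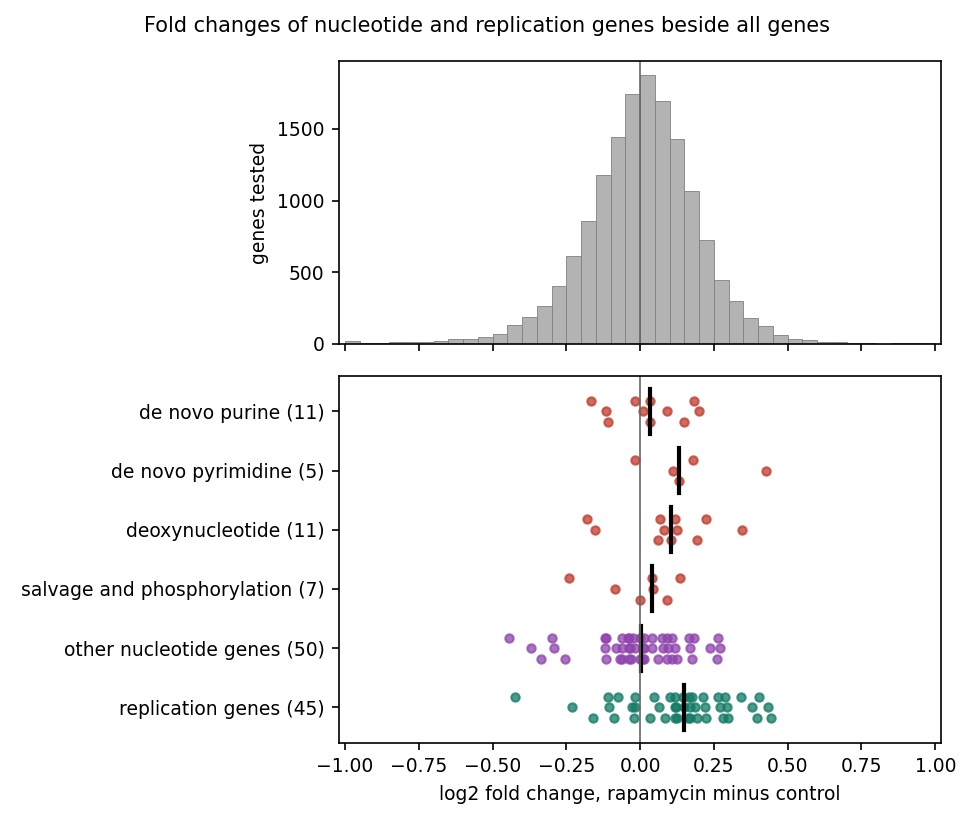
The upper panel counts all 15099 genes tested by log2 fold change (x axis, rapamycin minus control, in bins of 0.05, with values beyond 1 in the end bins). The lower panel shows each gene of the 4 branches, of the other nucleotide genes and of the replication genes as a point, with the median as a bar, and the medians lie between 0.00 and 0.15.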

How the data were processed

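The deposited table holds the authors' log2 values for each probe set on each array; RMA and Partek are named, per the submitters' processing notes, without versions. Genome build and probe mapping: not given in the sources used here. Samples were grouped by the agent in the labels. Probe set IDs are Entrez numbers: 24244 of 25582 had a platform symbol, 644 more were named through RefSeq (GRCh38.p14), and the rest stayed unnamed. Probe sets with a mean under the 40th percentile (4.86) were left out, and the highest probe set stood for a gene. Rapamycin was compared with control by limma 3.58.1 in R 4.3.3 (group as the only term, eBayes with trend, two-sided, Benjamini-Hochberg over 15099 genes), with 2 residual degrees of freedom plus 7.28 from moderation. The code was tested on simulated data. All 34 enzymes are named, values on every array being given for the 8 with the smallest p and for isoenzyme pairs; of the other nucleotide genes, those called and those with the 4 smallest p are named, apart from items not reported here. Members, lists and settings were chosen with earlier results of these data known. The number of arrays limits precision. Alternatives covered the filter, trend, normalization, replicate block, gene set, probe sets and each array left out.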

Additional observations from a re-analysis of the deposited data

How the results depend on the processing

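The counts of calls moved with the settings. The replicate numbers are not stated to mark a shared culture or day. Same-numbered arrays did not deviate together (correlation of deviations -0.03), so the replicate block is given here only. With it 112 genes rose, 204 fell and 1 member rose, CTPS1 (limma adjusted p = 0.0412). Over all genes, against 63 that rose and 127 that fell, 16 rose and 41 fell with no filter, 4 rose and 13 fell without the trend, and 248 fell with each array centred on its median. Among the other nucleotide genes 0 fell in the unfiltered fit and in that without the trend. CTPS1 was the 1 member that rose with the filter at the 60th percentile and among protein-coding genes alone. CCNB1 was the 1 replication gene that fell in both of these and with median centring. Median centring gave a median of 0.0013 for the purine branch and 0.073 for the deoxynucleotide branch, and repeated quantile normalization gave 0.065 and 0.129. Signs turned for PAICS (-0.020 with centring, -0.016 after quantile normalization) and, in the quantile setting, for GMPS (0.034) and APRT (0.012). Leaving out each array in turn gave 33 to 466 genes that rose and 52 to 913 that fell, 0 to 4 members that rose, 0 to 2 other nucleotide genes that rose and 0 to 5 that fell, and 0 to 8 replication genes that rose and 0 to 2 that fell. Medians then ran from 0.016 to 0.105 over the members, -0.024 to 0.061 for purine, 0.026 to 0.260 for pyrimidine, 0.107 to 0.145 for deoxynucleotide and -0.037 to 0.051 for salvage. Log2 fold changes that turned sign with an array left out were those of PPAT (-0.230 to 0.014), PAICS (-0.029 to 0.050), ADSL (-0.053 to 0.118), GMPS (-0.080 to 0.046), ADSS2 (-0.246 to 0.016), CTPS2 (-0.091 to 0.057), TK2 (-0.0094 to 0.145), DCTPP1 (-0.042 to 0.161), DTYMK (-0.107 to 0.342), NME1 (-0.172 to 0.258), GUK1 (-0.175 to 0.0079), APRT (-0.050 to 0.046), PNP (-0.0061 to 0.089) and ATF4 (-0.220 to 0.068). None of these was called in any setting. The cause was not tested. The naming of genes through RefSeq, added after the data were seen, changed no call of a named gene.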
